A study of Mus musculus with 5 samples.

Results

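The Zfp genes of mouse chromosomes 7, 13 and 17 were examined for acetylated histones at their promoters in CD8+ memory-type T cells. Members were the protein-coding genes of these chromosomes in the GENCODE annotation of GRCm38 whose symbol is Zfp followed by digits only. There were 161 such genes, 89 on chromosome 7, 31 on chromosome 13 and 41 on chromosome 17, among 3917 coding genes of the 3 chromosomes and 21951 in all. The rule itself uses no measured value, but it was set with earlier results of these data known. The other 3756 coding genes of the same chromosomes served as the comparison.

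The study asked whether loss of pyruvate dehydrogenase, which feeds acetyl-CoA from pyruvate, alters histone acetylation as T cells take on a memory state. ChIPseq was made with an antibody against acetylated histones, for which the labels name lysine 18. Peak lists of 2 WT libraries and 3 TPdh-/- libraries were used here, and the paper's figure legend gives a larger N per condition. TM cells in both groups were CD8+ T cells of adult male and female mice. The paper's methods for this culture name OT-I cells, activated with OVA peptide and then cultured with IL-15. Its legend for the genomic data names splenic T cells. WT cells carry the labels' genotype "wildtype". TPdh-/- cells, labelled PDH_Mutant, come from mice in which floxed Pdha1 is cut by Cre under the Cd4 promoter, a promoter active in T cell precursors, so that CD8+ T cells carry the deletion too. The labels do not say which libraries come from separate mice, so p-values measure the spread between these libraries alone. The data are the authors' lists of broad peaks, 1 for each library, with the position of each peak, its fold enrichment over the background that MACS2 estimated, and its −log10 q. In a mixed culture, fewer cells with acetylation at a promoter and less acetylation in each cell cannot be told apart.

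Most mouse Zfp genes encode proteins with tandem C2H2 zinc fingers, small zinc-binding folds that each contact a few bases of DNA. Many also hold a KRAB box, which recruits the scaffold TRIM28 (KAP1) and through it the histone methyltransferase SETDB1, HP1 proteins and histone deacetylases, so that the bound site is silenced. Their genes lie in clusters that grew by tandem duplication, and their best known targets are transposable elements. Acetylation of histone tails at a start site goes with an active or poised promoter.

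The 161 members fitted their name with few exceptions. A search of their coding sequences for the C2H2 pattern found at least 1 finger in 158 genes, with a median of 11 and a highest count of 33 in Zfp619. Zfp36, Zfp414 and Zfp935 had none by this pattern, and Zfp36 encodes tristetraprolin, a CCCH zinc finger protein that binds AU-rich messenger RNAs and promotes their decay. A KRAB box was found in 121 members, and 40 lacked one. Members with a KRAB box had a median of 12 fingers and those without 8. The pattern fixes the spacing between the cysteines, so fingers of another spacing are not counted and counts can be too low.

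The promoters of 7 members are shown because they span the range of results, with every CG in capitals, since peaks at start sites are commoner where CpG is dense. Sequences are 5′ to 3′ on the strand of the gene, 250 bases before to 50 after the start site, from RefSeq on GRCm38. Zfp36, Zfp143 and Zfp945 had a promoter peak in all 5 libraries, Zfp758 and Zfp748 in both WT libraries alone, and Zfp273 and Zfp318 in none. These windows hold 21, 18, 7, 20, 15, 7 and 49 CG in that order.
Zfp36, chr7:28379179-28379478, minus strand: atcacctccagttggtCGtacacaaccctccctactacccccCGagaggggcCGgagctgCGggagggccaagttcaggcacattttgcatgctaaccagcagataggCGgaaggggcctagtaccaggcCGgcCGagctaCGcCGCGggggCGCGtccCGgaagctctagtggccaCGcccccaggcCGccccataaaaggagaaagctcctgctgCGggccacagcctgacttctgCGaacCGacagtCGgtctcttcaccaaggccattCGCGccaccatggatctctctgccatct
Zfp143, chr7:110061452-110061751, plus strand: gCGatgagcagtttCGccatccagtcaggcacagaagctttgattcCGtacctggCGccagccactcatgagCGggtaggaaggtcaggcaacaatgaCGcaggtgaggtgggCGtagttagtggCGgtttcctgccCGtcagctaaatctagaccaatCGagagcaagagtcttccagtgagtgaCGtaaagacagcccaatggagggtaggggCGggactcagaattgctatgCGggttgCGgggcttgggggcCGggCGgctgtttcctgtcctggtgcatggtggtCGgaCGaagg
Zfp945, chr17:22867085-22867384, minus strand: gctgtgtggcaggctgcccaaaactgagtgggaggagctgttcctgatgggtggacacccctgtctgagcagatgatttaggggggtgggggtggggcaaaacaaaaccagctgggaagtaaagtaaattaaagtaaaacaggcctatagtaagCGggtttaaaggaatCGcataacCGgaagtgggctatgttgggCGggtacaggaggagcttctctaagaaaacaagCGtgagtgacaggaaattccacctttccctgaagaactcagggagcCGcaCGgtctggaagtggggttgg
Zfp758, chr17:22361213-22361512, plus strand: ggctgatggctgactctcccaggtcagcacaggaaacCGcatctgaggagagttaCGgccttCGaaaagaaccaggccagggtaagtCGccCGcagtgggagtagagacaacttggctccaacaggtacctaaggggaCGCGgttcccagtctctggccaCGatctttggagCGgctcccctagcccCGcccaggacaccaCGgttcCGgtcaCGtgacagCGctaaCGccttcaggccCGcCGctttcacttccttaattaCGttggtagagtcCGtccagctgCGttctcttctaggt
Zfp748, chr13:67553103-67553402, minus strand: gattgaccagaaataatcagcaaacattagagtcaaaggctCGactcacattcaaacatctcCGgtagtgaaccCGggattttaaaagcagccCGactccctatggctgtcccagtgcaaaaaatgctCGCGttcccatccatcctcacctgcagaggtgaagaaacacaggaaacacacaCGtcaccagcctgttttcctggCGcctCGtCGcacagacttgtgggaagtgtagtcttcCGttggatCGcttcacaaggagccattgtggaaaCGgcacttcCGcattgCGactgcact
Zfp273, chr13:67813566-67813865, plus strand: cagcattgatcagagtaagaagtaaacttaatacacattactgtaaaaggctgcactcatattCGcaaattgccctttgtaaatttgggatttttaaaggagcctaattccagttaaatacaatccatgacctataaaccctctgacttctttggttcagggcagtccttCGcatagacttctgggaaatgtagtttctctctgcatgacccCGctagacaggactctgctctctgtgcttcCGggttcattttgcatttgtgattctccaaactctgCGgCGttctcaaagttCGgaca
Zfp318, chr17:46383516-46383815, plus strand: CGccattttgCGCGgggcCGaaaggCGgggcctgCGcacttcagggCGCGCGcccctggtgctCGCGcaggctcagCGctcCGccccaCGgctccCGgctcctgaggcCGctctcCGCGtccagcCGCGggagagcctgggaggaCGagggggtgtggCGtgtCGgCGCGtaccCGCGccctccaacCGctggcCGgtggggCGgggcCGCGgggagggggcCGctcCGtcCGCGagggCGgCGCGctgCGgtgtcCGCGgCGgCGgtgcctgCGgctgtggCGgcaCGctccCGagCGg

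CG count did not order these 7 promoters by their peaks. Zfp273 and Zfp318 were picked from members without a peak for high CpG content on their chromosome. The 7 therefore do not show how CG count and peaks go together over all members. Zfp318, with the most, had no peak, and Zfp945, with as few as Zfp273, had one in every library. The RefSeq starts of Zfp36, Zfp143 and Zfp748 lie well inside the GENCODE gene, those of Zfp758, Zfp273 and Zfp318 less far, and a promoter peak was counted at any annotated start.

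The libraries differed in the length of their lists. WT 1 and WT 2 had 15962 and 8859 peaks, and TPdh-/- 1, 2 and 3 had 4920, 5419 and 9418. Without read numbers in the lists, the depth behind each is unknown, and counting error could not be given. The labelled cell type was checked by promoter peaks of marker genes. Of 12 T cell genes, 12, 9, 5, 7 and 9 had a peak in WT 1, WT 2 and TPdh-/- 1, 2 and 3. Of 5 myeloid genes only Spi1 had one, in all 5 libraries, and neither of 2 NK cell genes had one.

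A larger share of Zfp promoters than of other promoters carried an acetylation peak in each of the 5 libraries, before CpG content is taken into account. A promoter peak, meaning a peak within 3000 bp of any start site of the gene, was present at 104 of 161 Zfp genes (64.6%) in WT 1 and at 62 (38.5%) in WT 2. It was present at 29 (18%) in TPdh-/- 1, 30 (18.6%) in TPdh-/- 2 and 66 (41.0%) in TPdh-/- 3. The other coding genes of these chromosomes had one at 39.6% and 22.2% in WT and at 13.4%, 14.7% and 25.0% in TPdh-/- libraries. The Zfp share was therefore 1.63 and 1.74 times that of the other genes in WT 1 and WT 2, and 1.34, 1.27 and 1.64 times in TPdh-/- 1, 2 and 3.

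**Figure D1:**
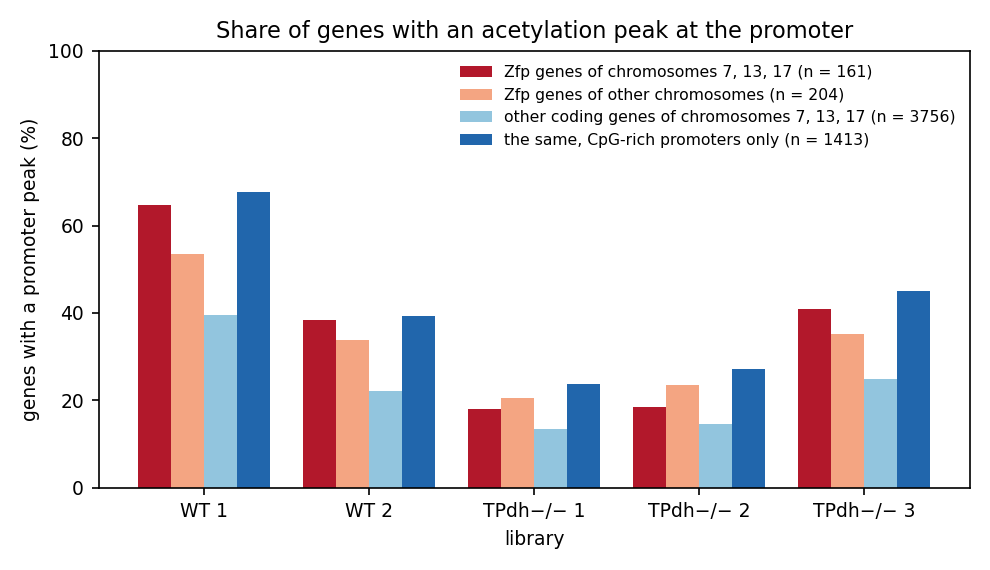
Share of genes with a promoter peak (%, vertical axis) in each library (horizontal axis), as bars for the Zfp genes of chromosomes 7, 13 and 17, Zfp genes elsewhere, the other coding genes of the 3 chromosomes, and those other genes with a CpG-rich promoter. The Zfp bars reach 64.6% in WT 1 and 18% in TPdh-/- 1, above the other coding genes in all 5 libraries and below their CpG-rich members in all 5.

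The gap between Zfp genes and other genes was 25.0 and 16.4 percentage points in WT 1 and WT 2, and 4.59, 3.91 and 16 in TPdh-/- 1, 2 and 3. Both WT gaps lay above the 3 TPdh-/- gaps, but WT 2 exceeded TPdh-/- 3 by a small margin. The WT gaps averaged 20.7 ± 6.12 points (SD, n = 2), those of TPdh-/- 8.17 ± 6.79 (SD, n = 3), a difference of 12.5 points (exact permutation test, two-sided, p = 0.2), which is the smallest p that 2 against 3 libraries allow. The share of Zfp genes itself averaged 51.6 ± 18.4% over the WT libraries (SD, n = 2) and 25.9 ± 13.1% over the TPdh-/- libraries (SD, n = 3), a difference of 25.7 points (exact permutation test, two-sided, p = 0.4). TPdh-/- 3 had more Zfp genes with a peak than WT 2, so the groups overlapped. The adjusted p was 0.4 for both values (exact permutation test, Benjamini-Hochberg over 2 tests). Other coding genes averaged 30.9 ± 12.3% (SD, n = 2) and 17.7 ± 6.34% (SD, n = 3), a difference of 13.2 points.

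These differences moved with the length of the lists and with single libraries. With the 4920 strongest peaks of each list, 51 and 45 Zfp genes had a peak in WT 1 and WT 2, and 29, 30 and 47 in TPdh-/- 1, 2 and 3, so that the WT minus TPdh-/- difference of the share was 7.87 points. Without WT 1 the difference of the share was 12.6 points and without WT 2 it was 38.7, while that of the gap was 8.19 points without WT 1. The gap with lists of that length was 14.5 and 12.8 points in WT 1 and WT 2 and 4.59, 4.6 and 13.2 in TPdh-/- 1, 2 and 3. Its WT minus TPdh-/- difference was then 6.16 points, and WT 2 lay below TPdh-/- 3, so the groups no longer separated.

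The strength of the peaks that Zfp promoters had was close to that of other promoters. The median fold enrichment was 3.00 and 2.97 at Zfp genes in WT 1 and WT 2, which was 0.24 and 0.16 above the other coding genes with a promoter peak, and the same gap was 0.03, 0.08 and 0.16 in TPdh-/- 1, 2 and 3. Ranked by −log10 q within each list, the median percentile of Zfp genes lay 2.36, 1.32, 2.32 and 1.67 points above that of other genes in WT 1, WT 2, TPdh-/- 1 and TPdh-/- 3, while the difference was −5.38 in TPdh-/- 2.

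Peaks of Zfp genes were narrower at the median than those of other genes in all 5 libraries, and most covered a start site. In WT 1, the peak covered an annotated start at 88.5% of 104 Zfp genes and at 76.4% of 1487 other genes, and its centre lay a median of 57 bp downstream of the nearest start. The share covering a start was 82.3% against 72.1% in WT 2 and 75.9% against 71.0% in TPdh-/- 1, but 73.3% against 74.5% in TPdh-/- 2 and 75.8% against 74.8% in TPdh-/- 3. The median width was 1004 bp in WT 1, against 1193 bp at other genes, and 704 bp in TPdh-/- 1, against 837 bp. The median was also below that of other genes in WT 2 (808 against 991 bp), TPdh-/- 2 (750 against 904 bp) and TPdh-/- 3 (943 against 1030 bp). In a count limited to peaks of at least 1000 bp, the mean gap in share over the 5 libraries was 2.51 points, against 13.2 points with all peaks.

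**Figure D2:**
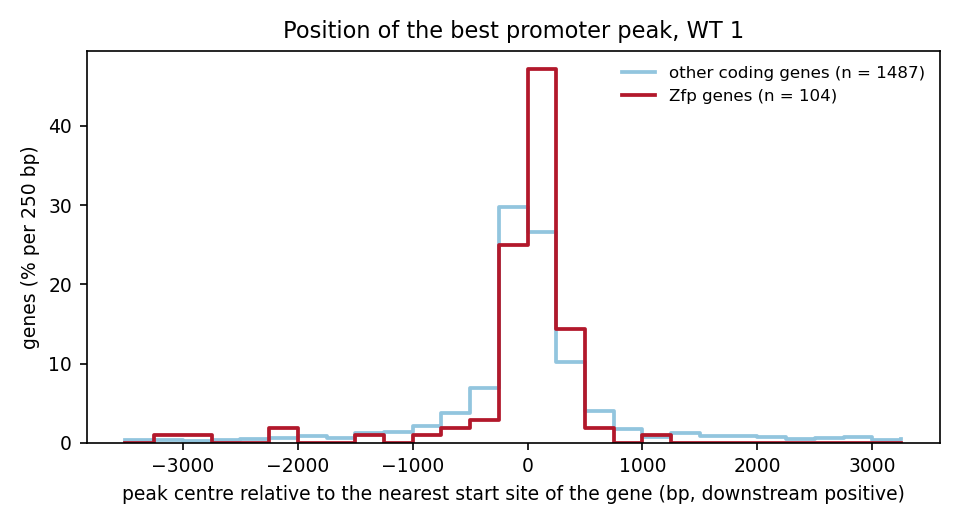
Distance of the centre of the best promoter peak from the nearest start site of the gene in WT 1 (bp, horizontal axis) and the share of genes in each bin of 250 bp (%, vertical axis). The line of the 104 Zfp genes rises to a higher and narrower maximum, just downstream of the start, than that of the 1487 other coding genes.

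The last coding exon of a Zfp gene usually holds its finger array, and in 122 members it lay over 3000 bp from any start. A peak touched it in 3 of these genes in WT 1 (2.46%), in 1 in WT 2, in 2 in TPdh-/- 1 and in none in TPdh-/- 2 and 3. Zfp51 had such a peak in both WT libraries and TPdh-/- 1, Zfp771 and Zfp773 in WT 1, and Zfp710 in TPdh-/- 1. These genes are named after their values were seen. At other coding genes the share was 1.13% in WT 1 and 0.391% or less in the other libraries.

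Zfp genes fell into a few patterns across the libraries, and each of the 104 with any promoter peak had one in WT 1. No Zfp gene had a TPdh-/- peak while lacking one in WT 1 and WT 2, where 1.04% of other coding genes did, and none had one in WT 2 without WT 1 (other genes 0.319%). The list of WT 1 is also the longest of the 5. The 57 members without any peak made up 35.4%, against 59.1% of other coding genes.

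**Figure D3:**
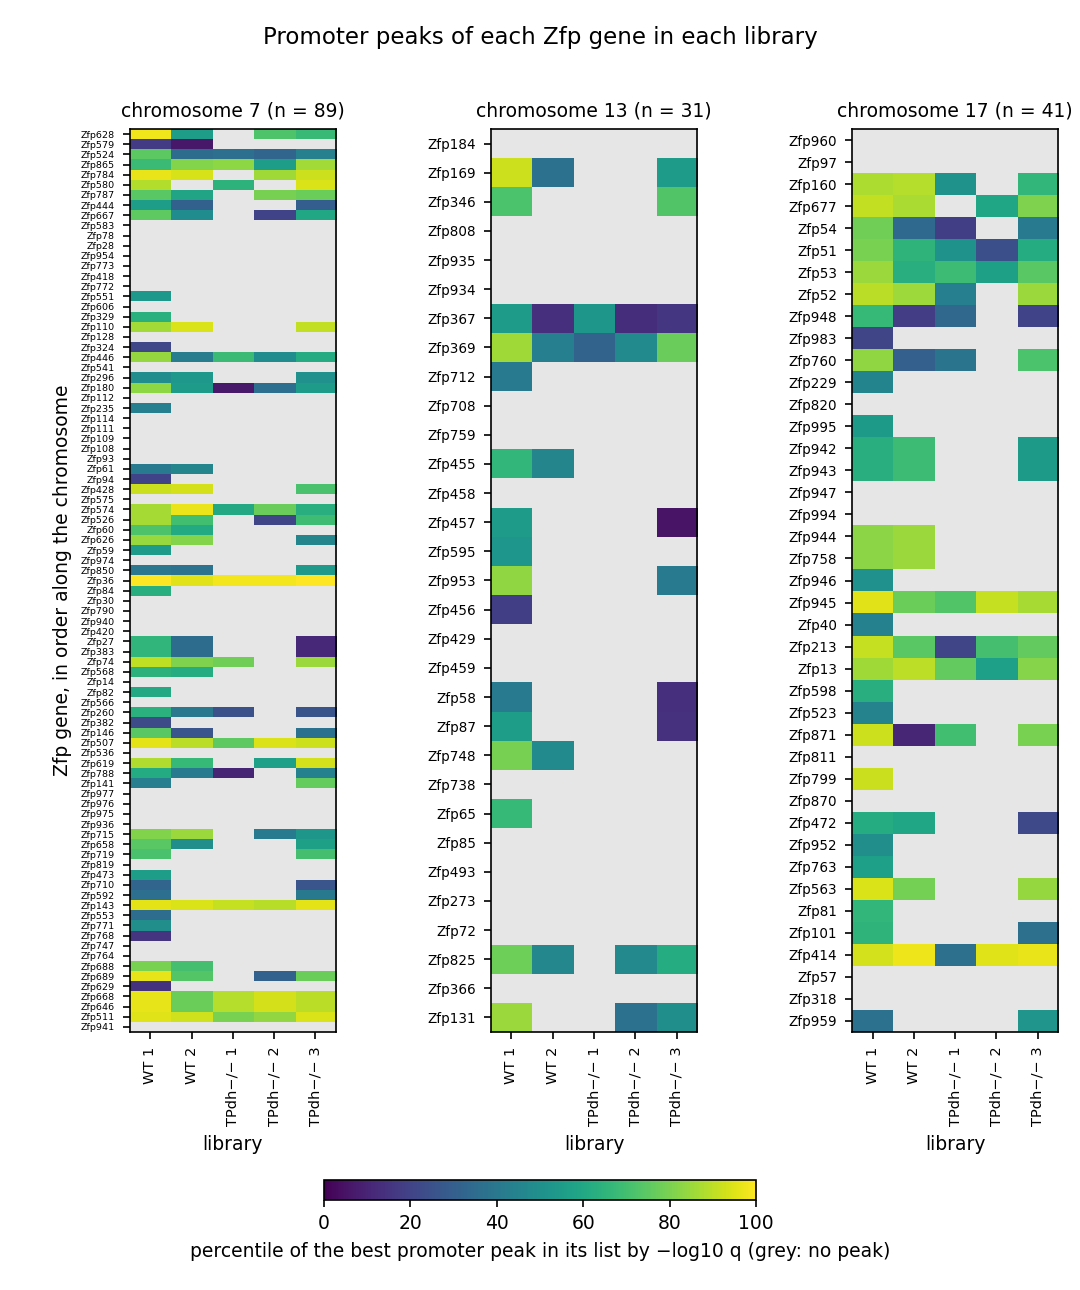
Each row is a Zfp gene in order along its chromosome (vertical axis), each column a library (horizontal axis), and the colour gives the percentile of its best promoter peak by −log10 q within that list, with grey for no peak. Rows with colour in all columns number 11 on chromosome 7, 2 on chromosome 13 and 6 on chromosome 17, and 57 rows are grey throughout.

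Promoter peaks in all 5 libraries marked 19 Zfp genes (11.8%), against 9.82% of other coding genes. Zfp36 was the strongest of them by rank, at the 99.8 and 95.5 percentile in WT 1 and WT 2 and at 98.2, 98.3 and 99.7 in TPdh-/- 1, 2 and 3. Its fold enrichment was 2.64 and 2.24 in WT and 2.67, 2.62 and 2.76 in TPdh-/- libraries, so WT 2 was the lowest and the other 4 lay close together. With promoters within 1000 bp, Zfp36 had a peak in 2 libraries and not in 5, so its place here rests on the 3000 bp window. Zfp143, a transcription factor that binds promoters of many widely expressed genes, had folds of 3.05 and 3.11 in WT and 3.09, 2.95 and 3.08 in TPdh-/-, which overlapped. Zfp507 had folds of 4.08 and 3.88 in WT and of 3.35, 3.96 and 3.81 in TPdh-/-.

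Zfp646 and Zfp668 lie side by side on chromosome 7 with a shared promoter and were called on the same peak, with folds of 3.33 and 3.05 in WT and 3.38, 3.41 and 3.16 in TPdh-/-. On chromosome 13 the only members with a peak throughout were Zfp369 and Zfp367. The peak of Zfp369 had folds of 3.57 and 2.85 in WT and 2.81, 2.88 and 3.31 in TPdh-/-. That of Zfp367 ranked low, between the 13.2 and 54.8 percentile. On chromosome 17 Zfp414 had folds of 3.72 and 4.23 in WT and 2.85, 3.92 and 4.0 in TPdh-/-, with the low value of TPdh-/- 1 at the 36.8 percentile.

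The other leading members of chromosome 17 carry a KRAB box. Zfp945 had folds of 3.46 and 3.04 in WT and 2.96, 3.31 and 3.04 in TPdh-/-. Zfp13 had 2.53 and 2.91 in WT and 2.99, 2.58 and 2.77 in TPdh-/-. Zfp53 had 2.63 and 2.46 in WT and 2.82, 2.76 and 2.84 in TPdh-/-. The groups overlapped at Zfp945 and Zfp13, and at Zfp53 the TPdh-/- values fell in a narrow range above WT 1 and WT 2.

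Where a promoter had a peak throughout, its fold was higher in WT at some genes and in TPdh-/- at others. Over the 19 genes the median WT minus TPdh-/- difference of mean fold was 0.04, and 10 of 19 were higher in WT, against a median of 0.05 and 225 of 369 other genes. Genes enter this count only through a peak in every library. The median fold of all peaks was 2.40 and 2.54 in WT 1 and WT 2. In TPdh-/- 1, 2 and 3 it was 2.65, 2.58 and 2.48. Folds were not adjusted for this, so they do not compare the amount of acetylation between libraries. Both WT folds lay above all 3 TPdh-/- folds in 2 genes (10.5%, other genes 15.7%) and below them in 1 gene (5.26%, other genes 8.94%). The 2 genes were Zfp180 and Zfp511, named after their values were seen, and the single gene was Zfp53.

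A promoter peak in WT 1 and WT 2 alone was found at 9 Zfp genes (5.59%), against 2.05% of other coding genes. They were Zfp579, Zfp61, Zfp60, Zfp568 and Zfp688 on chromosome 7, Zfp455 and Zfp748 on chromosome 13, and Zfp758 and Zfp944 on chromosome 17. Of the 9, 8 carry a KRAB box, as do 121 of all 161 members. Zfp758 and Zfp944 share a promoter and were called on a single peak, at the 82.7 percentile in WT 1 with a fold of 3.72 and the 85.1 percentile in WT 2 with a fold of 3.68. Zfp688 ranked at the 79.7 and 70.6 percentile with folds of 3.29 and 3.30. Zfp568, a KRAB protein known for silencing a placental transcript of Igf2 in the embryo, ranked at 64.3 and 61.8 with folds of 3.18 and 3.15. Zfp60 had folds of 3.13 in both. Zfp579 and Zfp61, outside the naming rule, ranked lower, at 17.2 and 41.5 in WT 1. Zfp455 and Zfp748 ranked at 66.4 and 79.4 in WT 1 and lower, at 45.7 and 47.7, in WT 2.

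The count of 9 rests on single libraries. It was 38 without WT 2 and 24 without TPdh-/- 3, since 29 Zfp genes (18%, other genes 12.1%) had a peak in WT 1 alone and 15 (9.32%, other genes 4.21%) in both WT and TPdh-/- 3 alone. With peaks of at least 1000 bp it was 1. Peaks in WT 1 and TPdh-/- 3 alone, the longest lists of each genotype, were found at 11 genes (6.83%, other genes 3.81%). They include Zfp346, which encodes a protein that binds double-stranded RNA, with folds of 3.01 and 3.18, Zfp719 with 3.02 and 3.20, and Zfp953 with 3.69 and 2.73.

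TPdh-/- 1 and TPdh-/- 2 had nearly the same number of Zfp genes with a peak, 29 and 30. Both had one at 19 members, TPdh-/- 1 without TPdh-/- 2 at 10 and TPdh-/- 2 without TPdh-/- 1 at 11. The 10 genes with a peak in all libraries but TPdh-/- 1 (6.21%, other genes 3.09%) had 8 on chromosome 7 and 8 CpG-rich. The 9 genes with a peak in all but TPdh-/- 2 (5.59%, other genes 2.08%) had 6 on chromosome 17 and 2 CpG-rich, and 8 of them carry a KRAB box. Of all 161 members, 89 lie on chromosome 7 and 41 on chromosome 17, 62 are CpG-rich and 121 carry a KRAB box. The 9 genes without a peak in TPdh-/- 2 alone are Zfp74, Zfp260, Zfp788, Zfp160, Zfp54, Zfp52, Zfp948, Zfp760 and Zfp871, of which Zfp260 lacks the box.

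Zfp genes with a KRAB box had a promoter peak less often than those without in each of the 5 libraries. With the box, 70 of 121 genes (57.9%) had a peak in WT 1 and 40 (33.1%) in WT 2, and 15 (12.4%), 13 (10.7%) and 40 (33.1%) in TPdh-/- 1, 2 and 3. Without it, 34 of 40 (85.0%) had one in WT 1 and 22 (55.0%) in WT 2, and 14 (35.0%), 17 (42.5%) and 26 (65.0%) in TPdh-/- 1, 2 and 3. In TPdh-/- 1 and 2 the share of KRAB genes was below that of other coding genes, and in the other 3 libraries above it. A peak in all 5 libraries was present at 7 of 121 KRAB genes (5.79%) and 12 of 40 others (30.0%), and 51 of the 57 members without any peak carry a KRAB box.

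**Figure D4:**
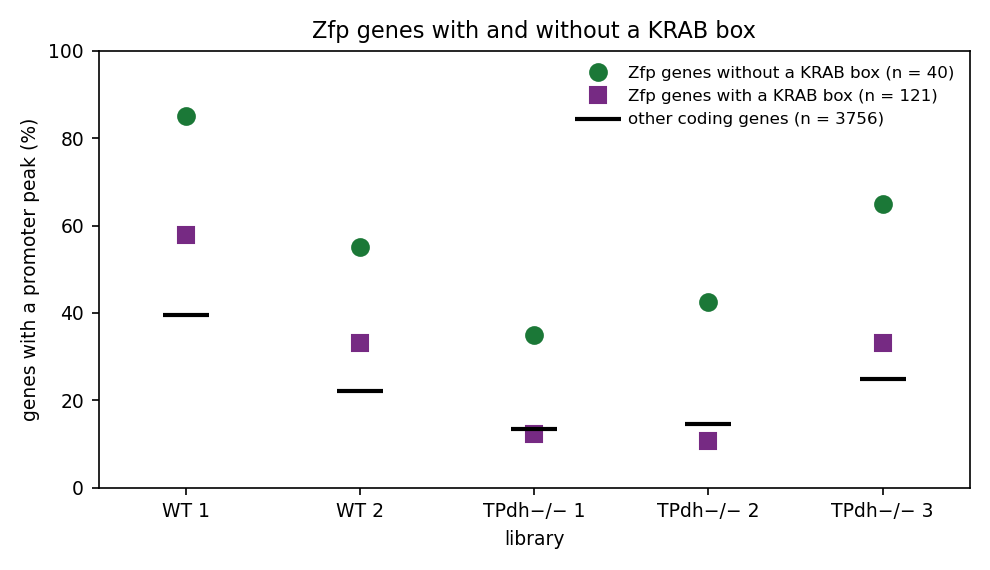
Share of genes with a promoter peak (%, vertical axis) in each library (horizontal axis) for 121 Zfp genes with a KRAB box (squares), 40 without (circles) and the other coding genes (black bars). The circles lie above the squares in all 5 libraries, and the squares fall below the black bars in TPdh-/- 1 and 2.

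The same order held among Zfp genes elsewhere in the genome. There, 108 genes with a KRAB box had a mean share of 38.9% in WT and 21.9% in TPdh-/-, and 96 without had 49.0% and 31.6%. Taken whole, the 204 Zfp genes of other chromosomes had a peak at 53.4% and 33.8% in WT and at 20.6%, 23.5% and 35.3% in TPdh-/- libraries. The Zfp genes of chromosomes 7, 13 and 17 were above them in both WT and TPdh-/- 3 and below them in TPdh-/- 1 and 2, with a mean gap of 2.82 points over the 5 libraries. A further 36 coding genes of the 3 chromosomes hold a KRAB box under other names, and 50.0% and 25.0% of these had a peak in WT 1 and WT 2 and 13.9%, 11.1% and 19.4% in TPdh-/- 1, 2 and 3. Coding genes with neither a Zfp symbol nor a KRAB box had 39.5%, 22.1%, 13.4%, 14.8% and 25.1% in the 5 libraries, so the order by KRAB box was the other way in both WT libraries and TPdh-/- 1.

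CpG content moved with the KRAB box and with the peaks. A promoter was called CpG-rich when the 500 bp on either side of the 5′ end had at least 50% G and C and a CpG count of at least 0.6 of that expected from its bases. This held for 34 of 121 KRAB genes (28.1%) and 28 of 40 others (70.0%). Among CpG-rich members the order by KRAB box was kept in 4 libraries, with 82.4% against 92.9% in WT 1 and 17.6%, 23.5% and 50.0% against 32.1%, 46.4% and 71.4% in TPdh-/- 1, 2 and 3, but not in WT 2, with 58.8% against 57.1%.

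Within the CpG-rich class and outside it, Zfp promoters also had the higher share in each of the 5 libraries. The margin was small in the CpG-rich class in TPdh-/- 1 and outside it in TPdh-/- 2. The 62 CpG-rich Zfp genes had a peak at 87.1% and 58.1% in WT and at 24.2%, 33.9% and 59.7% in TPdh-/- 1, 2 and 3. The 1413 CpG-rich other genes had one at 67.7% and 39.4% in WT and at 23.7%, 27.2% and 45.0% in TPdh-/-. Among promoters not CpG-rich, 99 Zfp genes had a peak at 50.5%, 26.3%, 14.1%, 9.09% and 29.3% in the 5 libraries in that order, and 2343 other genes at 22.6%, 11.7%, 7.21%, 7.17% and 12.9%. The latter 2 sets differ in CpG content, with a median observed over expected of 0.45 at Zfp genes and 0.19 at other genes. In narrower ranges of CpG content the order was not the same throughout. At 0.2 to 0.4 the Zfp share was 2.94% against 11.1% in TPdh-/- 2 and 17.6% against 18.4% in TPdh-/- 3, and at 0.8 and above it was 21.4% against 26.7% in TPdh-/- 1. Measured against CpG-rich other genes only, all 161 Zfp genes had the lower share, with a mean gap of −4.47 points.

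**Figure D5:**
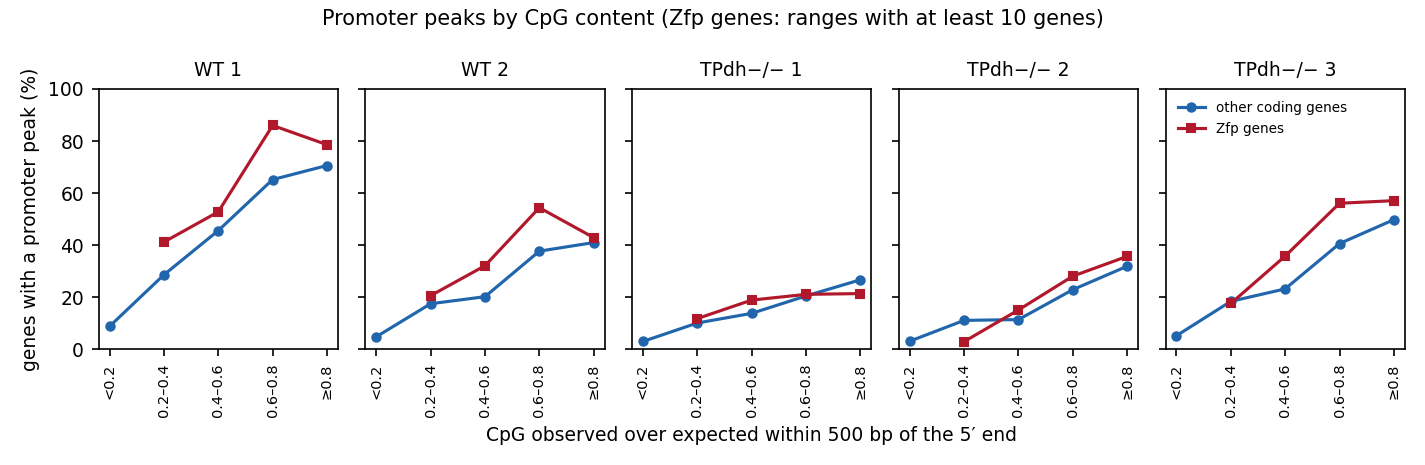
Share of genes with a promoter peak (%, vertical axis) by range of CpG observed over expected around the 5′ end (horizontal axis), in a panel for each library, for Zfp genes (squares, ranges with at least 10 genes) and other coding genes (circles). The share of other genes rose with CpG content at each step in all 5 libraries, while that of Zfp genes was lower at 0.8 and above than at 0.6 to 0.8 in WT 1 and WT 2. At 0.6 to 0.8 it was 86.0% of 57 Zfp genes against 65.2% of other genes in WT 1.

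The other coding genes include large families that are known for their use in sensory neurons. The 3 chromosomes hold 547 olfactory and vomeronasal receptor genes, of which 1.65% had a promoter peak in WT 1 and 95.4% had none in any library. Without them, 46.1% and 25.8% of 3209 other coding genes had a peak in WT 1 and WT 2, and 15.6%, 17% and 29% in TPdh-/- 1, 2 and 3. All 5 values remained below those of the Zfp genes.

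Reads from repeated sequence around Zfp starts are not in these lists, since the authors kept only reads that map to 1 place. Of the 51-base words within 1000 bp of the 5′ end, a median of 98.5% occurred once in the genome at Zfp genes and 99.8% at other genes. In 32 members, each with a KRAB box, fewer than 90% were unique, and of these 13 (40.6%) had a peak in WT 1, 6 in WT 2 and 0, 1 and 6 in TPdh-/- 1, 2 and 3. Of the 129 members above that limit 91 (70.5%) and 56 (43.4%) had a peak in WT 1 and WT 2, and 29 (22.5%), 29 (22.5%) and 60 (46.5%) in TPdh-/- 1, 2 and 3. The order by KRAB box also held in these 129 genes, with 64% of 89 KRAB genes against 85.0% of 40 others in WT 1, 38.2% against 55.0% in WT 2, and 16.9%, 13.5% and 38.2% against 35.0%, 42.5% and 65.0% in TPdh-/- 1, 2 and 3. Zfp758 and Zfp944, with a peak in both WT libraries alone, had 80.2% and 80.9% unique words. In the 129 genes the count with a peak in both WT alone was 7, against 9 in all members. The part of unique mapping in the remaining values was not tested.

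The clusters differed from one another. Runs of at least 5 Zfp genes with gaps of at most 250 kb gave 11 blocks on the 3 chromosomes, and 54 members lay outside them. On chromosome 13, a block of 19 KRAB genes from 67038596 to 67827002 had no CpG-rich promoter. In it 10 genes had a peak in WT 1, 2 in WT 2, none in TPdh-/- 1 and 2, and 4 in TPdh-/- 3. On chromosome 17, a block of 18 KRAB genes from 21383748 to 22456689 had a peak at 15, 11, 6, 3 and 9 genes in the 5 libraries in that order, although 10 of its genes had fewer than 90% unique words. Both blocks thus consist wholly of KRAB genes and differ in how many promoters had a peak. The chromosome 17 block had 5 CpG-rich promoters and a median CpG observed over expected of 0.53, against 0.38 in the chromosome 13 block. In the chromosome 17 block Zfp942 and Zfp943 were counted on a shared peak, as were Zfp758 and Zfp944.

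On chromosome 7, the 6 genes from 4915217 to 5053723, none with a KRAB box, had a peak at 6, 5, 3, 4 and 5 genes. A block of 12 genes from 24081924 to 24587641, 9 with a KRAB box, had one at 5, 3, 1, 1 and 2. In the largest block of chromosome 7, 15 genes from 29768552 to 30169750, the counts were 9, 6, 2, 0 and 5, and no gene had a peak in all 5 libraries. Of the 19 genes with a peak throughout, 13 lay outside any block. Per chromosome the Zfp share averaged 52.2% in WT and 26.6% in TPdh-/- on chromosome 7, 35.5% and 17.2% on chromosome 13, and 62.2% and 30.9% on chromosome 17. On chromosome 13, where other coding genes averaged 34.8% in WT and 20.1% in TPdh-/-, these means hid opposite libraries. Zfp genes there had the higher share in WT 1 (51.6% against 44.9%) and TPdh-/- 3 (32.3% against 28%) and the lower in WT 2 (19.4% against 24.7%), TPdh-/- 1 (6.45% against 15.9%) and TPdh-/- 2 (12.9% against 16.5%).

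Of the 57 members without a peak, 8 have a CpG-rich start. Among the 57, the 2 highest by CpG observed over expected on chromosome 7 were Zfp536 and Zfp541. They were Zfp184 and Zfp273 on chromosome 13, and Zfp318 and Zfp870 on chromosome 17. Zfp318, which B cells need to express IgD, had a CpG observed over expected of 1.01. Zfp536, a neural gene, had 0.91, and Zfp541, which acts in male germ cells, 0.85. The RefSeq start of Zfp541 lies elsewhere, and its window held only 4 CG. Zfp184 had 0.63, Zfp273 0.50 and Zfp870 0.48. Zfp536, Zfp273 and Zfp870 were not CpG-rich by the definition above. At least 95.1% of the words around these 6 starts were unique. Over all 57 members without a peak the median CpG observed over expected was 0.46, against 0.20 for other genes without a peak, and over the 19 with a peak in all 5 it was 0.68, against 0.75.

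Motifs were counted as letters in the RefSeq promoters, on both strands, for 144 members with an entry. The ETS motif CCGGAAGT was found in 17 (11.8%), against 5.71% of 2977 other coding genes of the 3 chromosomes and 4.31% of all 27025 promoters. The NRF1 motif GCGCATGC was in 12 (8.33%, other genes 3.83%, all 3.05%), the YY1 motif ATGGCGGC in 9 (6.25%, other genes 3.53%, all 2.60%) and the CREB/ATF motif TGACGTCA in 7 (4.86%, other genes 3.02%, all 2.03%). Each of these motifs contains CG, and the shares were not matched for CpG content. The median CpG observed over expected was 0.54 at all Zfp members and 0.44 at all other coding genes. The ETS motif lay in the printed promoter of Zfp945. The ETS motif was present in 2 of 12 members with an entry and a peak in all 5 libraries and in 6 of 50 without any peak.

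Of 20 listed co-repressor genes 19 were found in the annotation, and 18, 10, 8, 7 and 14 of them had a promoter peak in WT 1, WT 2 and TPdh-/- 1, 2 and 3. The co-repressors that KRAB proteins recruit lie on many chromosomes, with Trim28 on chromosome 7 and Daxx and Uhrf1 on chromosome 17. Among coding genes outside chromosomes 7, 13 and 17, a set that leaves these out, the share with a promoter peak was 42.3%, 25.1%, 15.6%, 16.8% and 28.3% in these libraries. Cbx3 and Cbx5, which encode HP1 proteins, Daxx, a histone chaperone, Hdac2, a deacetylase, and Morc3 had one in all 5. Trim28 had one in WT 1 alone, at the 12.4 percentile of that list. Setdb1 had none in any library. Atf7ip, the partner of SETDB1, had one in both WT libraries alone, at the 50.5 and 48.5 percentile with folds of 2.06 and 2.24.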

How the data were processed

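ChIPseq of acetylated histones in TM cells was taken from 5 deposited peak lists, 2 WT and 3 TPdh-/-, grouped by the labels. The authors aligned 51-base reads to GRCm38/mm10 with BWA-mem 0.7.17, kept uniquely mapping reads outside blacklisted regions with Samtools 1.15.1, and called broad peaks with MACS2 2.2.6 for each library separately. The deposited values are a fold enrichment, a linear ratio, and −log10 p and −log10 q from the authors' peak calling. An input control is not given in the sources used here. The authors' DiffBind analysis starts from reads and was not repeated.

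Peaks were joined to every coding gene by an overlap of at least 1 bp with 3000 bp on either side of any start site (GENCODE M21, Python 3.11.15, numpy 2.4.6, pandas 2.3.3). The peak with the highest −log10 q represented a gene, and its percentile was taken within its own list. Depth is unknown. Sequence features came from the RefSeq GRCm38 genome. C2H2 fingers were counted by pattern in translated coding exons. KRAB boxes were called with a profile of 90 windows of 40 residues taken from the Zfp proteins themselves (pyhmmer 0.12.3, at least 10 bits). The count of unique words was tested on simulated sequence.

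WT and TPdh-/- were compared by an exact permutation test of the 5 library values, two-sided as double the smaller one-sided p (scipy 1.17.1). Gene sets were compared by counts and medians, without a test. The members, lists and alternatives were chosen with earlier results of these data known. Named genes were, on each chromosome, the 4 highest by mean percentile with a peak in all 5 libraries, up to 3 with a peak in WT 1 and WT 2 alone, and the 2 without a peak and with the highest CpG content, plus up to 3 with a peak in TPdh-/- alone and up to 3 in WT 1 and TPdh-/- 3 alone, and the co-repressor genes. Alternatives were peaks past a −log10 q of 2 or of 5, equally long lists, promoters within 1000 bp, peak midpoints, the gene's 5′ end alone, promoters not shared, peaks of at least 1000 bp, each chromosome left out, other comparison genes, each library left out and a replicate block. The limit to genes of unique sequence was chosen after seeing the data. Some results of the marker genes are not reported here.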

Additional observations from a re-analysis of the deposited data

How the results depend on the processing

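Of 146 alternative values of the 8 main results, 119 stayed within the spread between libraries or within 1.5 times the count. The WT minus TPdh-/- difference in the share of Zfp genes was 25.7 points and was 7.87 with lists of equal length, and 12.6 to 38.7 with a library left out. The mean gap to other genes was 13.2 points and was 2.51 with peaks of at least 1000 bp, −4.47 against CpG-rich genes and 2.82 against Zfp genes elsewhere, and 10.2 to 15.5 with a library left out. The WT minus TPdh-/- difference of that gap was 12.5 points and was 3.15 with wide peaks and 4.09 against CpG-rich genes, and 8.19 to 16.8 with a library left out. The median percentile gap was 0.457 points and was 11.5 with wide peaks, −2.91 and 6.04 without chromosome 7 and 13, and −12.2 against Zfp genes elsewhere. The median fold gap was 0.13 and was −0.02 at a −log10 q of at least 5, 0.29 with wide peaks and −0.12 against Zfp genes elsewhere. The count with a peak in all 5 libraries was 19 and was 4 at a −log10 q of at least 5, 12 with promoters not shared, 4 with wide peaks, 8 without chromosome 7 and 19 to 29 with a library left out, the highest without TPdh-/- 1. The count in both WT alone was 9 and was 1 with wide peaks, 4 without chromosome 7 and 9 to 38 with a library left out, with 38 without WT 2 and 24 without TPdh-/- 3. The count without any peak was 57 and was 92 at a −log10 q of at least 5, 95 with lists of equal length, 103 with wide peaks, 24 without chromosome 7 and 57 to 86 with a library left out, the highest without WT 1. In genes of unique sequence, chosen after seeing the data, the difference in share was 26.5 points and the mean gap 15.1. Over the named genes and 4 settings, 21 pairs of gene and setting changed the number of libraries with a peak. The cause was not tested.

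Pairing replicates 1 and 2 of each genotype by number, without TPdh-/- 3, gave a replicate block difference of 33.2 points in the share and 16.4 in the gap. Deviations from the group means were 13 and −13 points in WT 1 and 2 and −7.87, −7.25 and 15.1 in TPdh-/- 1, 2 and 3, so the numbers were not shown to pair the libraries. No read depth was given to set a limit of detection.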
